A study of Mus musculus with 2 samples.

Results

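Asz1, Dazl, Ddx4, Mael, Sycp1, Sycp3, Taf7l, Tex101, Tdrd1 and Slc25a31 belong to a group of germline genes whose promoters are silenced by DNA methylation outside the germline. These 10 genes were taken by symbol from the 55415 features of the deposited tables, and all 10 had at least 50 UMIs (counts read here as single molecules) over both libraries, the minimum set for a full description. Neither methylation nor germ cells were measured, so the group's name rests on what is known of these genes and not on these data. Of the 5 other germ cell markers examined, Dppa3 and Kit were higher in the library of reporter-positive cells and Prdm1, Nanos3 and Dnd1 were lower in it, with a median log2 ratio of -0.33 and values given below. Levels are in CPM (UMIs scaled to 1000000 UMIs of the library).

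As background, CpG-rich promoters of many germline genes gain DNA methylation around implantation and stay shut in somatic cells, and several of them are also held by the PRC1.6 complex, in which MGA and MAX recognise an E-box and E2F6 an E2F-type site. Loss of DNA methylation in embryonic stem cells is known to raise transcripts of several of these genes. The products act later, in germ cells, in the piRNA pathway that silences transposons (Asz1, Mael, Tdrd1, Ddx4), in translation of germ cell mRNAs (Dazl), in the synaptonemal complex that pairs meiotic chromosomes (Sycp1, Sycp3), and in functions special to male germ cells (Taf7l, Slc25a31, Tex101).

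The cells were mouse embryonic stem cells (mESC), pluripotent cells grown in culture, of a line with a GFP reporter under the promoter of the endogenous retrovirus MERVL and with H2B-mIFP, a fluorescent histone used to follow cells. MERVL is active in a minority state of mESC that resembles the embryo at the 2-cell stage (2C-like), in which the Zscan4 genes are transcribed. The labels give 1 single-cell library of MERVL-GFP positive cells and 1 of MERVL-GFP negative cells, both of the same line without further treatment in the labels, and how cells were separated is not stated. With 1 library a group, no difference between the libraries has a replicate check, no test between groups was possible, and the batch label repeats the group, which leaves the 2 impossible to separate: they cannot be told apart.

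After the cell filter the positive library held 4596 cells with 138303336 UMIs (median 29554.5 per cell) and the negative library 3832 cells with 156406894 UMIs (median 39099.5), and the libraries shared 3 barcodes. At a fixed depth of 10000 UMIs per cell, drawn at random, GFP was found in 61.9% of cells of the positive and 0.471% of those of the negative library, so the reporter transcript followed the labels. Of 15 markers of the 2C-like state with at least 50 UMIs, 14 were at least 2-fold higher in the positive library. The 8 pluripotency markers were present in both, with Pou5f1 at 278 and 389 CPM and Nanog at 410 and 192 CPM in the positive and negative library. Of the 8, 2 were higher in the positive library, and the median log2 ratio was -0.26. All 12 primitive endoderm markers were higher in the positive library, by a median of 0.75 on the log2 scale beside 0.25 over all genes, and 11 of the 12 were higher under TMM and median-of-ratios scaling, computed for the lists after seeing the data. Of 8 fibroblast markers, the 4 with at least 50 UMIs were all higher in the positive library, with Col1a2 at 1.67 against 0.134 CPM, Thy1 at 9.29 against 2.15 CPM, Twist1 at 8.50 against 4.26 CPM and Col1a1 at 1.80 against 0.844 CPM. The matrix genes Col3a1, Postn, Lum and Dcn had 0 to 6 UMIs per library. The part of such cells in the results was not tested. Among 8 trophoblast markers, 7 had at least 50 UMIs, of which 5 were at least 2-fold higher and 1 at least 2-fold lower (3 and 1 under either scaling).

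On the mm10 build, by GENCODE M21, Asz1 lies at chr6:18050964-18109061, Mael at chr1:166201201-166238747, Tdrd1 at chr19:56826209-56870012 and Ddx4 at chr13:112598333-112652475. Dazl lies at chr17:50279395-50293636, Sycp1 at chr3:102818499-102936100 and Sycp3 at chr10:88459569-88473236. The remaining members are Taf7l at chrX:134460118-134476490, Slc25a31 at chr3:40708855-40726096 and Tex101 at chr7:24668007-24676675. Sycp3, Tdrd1 and Slc25a31 are on the plus strand and the other 7 on the minus strand, and all 10 are protein-coding. Sycp3 overlaps Chpt1, an enzyme of phosphatidylcholine synthesis encoded on the other strand. Whether counting used strand is not given in the sources used here, so reads of Sycp3 and Chpt1 may not be told apart. Chpt1 itself had 47.3 CPM in the positive and 23.8 CPM in the negative library. Of the 50-base windows of the members' transcripts, 5.47% of those of Sycp1 and 0.0185% of those of Tdrd1 also occur in transcripts of other genes, and none of the other 8 members' windows do.

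The promoters are shown for 5 members that carry the contrasts described below: Dazl, Sycp1, Slc25a31 and Taf7l, at least 2-fold higher in the positive library, and Sycp3, nearly level between the libraries. Asz1, also at least 2-fold higher, is not shown, and its promoter is described after the sequences. Each sequence is the 250 bases before the gene's start in RefSeq (GRCm38.p6), read 5' to 3' on the gene's own strand. The windows are chr17:50293621-50293870 on the minus strand for Dazl, chr3:102936101-102936350 on the minus strand for Sycp1 and chr3:40708621-40708870 on the plus strand for Slc25a31. That of Taf7l is chrX:134476491-134476740 on the minus strand and that of Sycp3 is chr10:88459337-88459586 on the plus strand. Capitals mark the E-box CACGTG, which reads the same on both strands, and the E2F6-type motif TTCCCGC or its reverse complement GCGGGAA.
Dazl: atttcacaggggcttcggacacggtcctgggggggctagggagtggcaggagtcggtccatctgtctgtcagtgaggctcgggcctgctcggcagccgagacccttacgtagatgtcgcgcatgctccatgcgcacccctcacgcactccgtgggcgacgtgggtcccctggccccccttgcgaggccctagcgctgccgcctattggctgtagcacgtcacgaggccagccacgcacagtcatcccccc
Sycp1: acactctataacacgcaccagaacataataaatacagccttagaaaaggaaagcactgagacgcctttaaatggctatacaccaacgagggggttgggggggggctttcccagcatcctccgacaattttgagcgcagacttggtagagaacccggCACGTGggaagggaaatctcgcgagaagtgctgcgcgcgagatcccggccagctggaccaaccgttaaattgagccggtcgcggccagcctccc
Slc25a31: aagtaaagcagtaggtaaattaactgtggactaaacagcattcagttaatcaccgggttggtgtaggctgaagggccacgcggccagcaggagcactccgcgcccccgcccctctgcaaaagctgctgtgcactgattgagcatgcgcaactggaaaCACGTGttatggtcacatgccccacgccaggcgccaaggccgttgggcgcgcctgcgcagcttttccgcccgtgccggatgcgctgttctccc
Taf7l: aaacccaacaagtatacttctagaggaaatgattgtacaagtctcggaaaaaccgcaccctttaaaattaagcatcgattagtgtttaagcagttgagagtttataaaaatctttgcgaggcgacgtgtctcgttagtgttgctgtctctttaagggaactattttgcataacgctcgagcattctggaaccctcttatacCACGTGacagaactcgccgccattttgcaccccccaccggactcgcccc
Sycp3: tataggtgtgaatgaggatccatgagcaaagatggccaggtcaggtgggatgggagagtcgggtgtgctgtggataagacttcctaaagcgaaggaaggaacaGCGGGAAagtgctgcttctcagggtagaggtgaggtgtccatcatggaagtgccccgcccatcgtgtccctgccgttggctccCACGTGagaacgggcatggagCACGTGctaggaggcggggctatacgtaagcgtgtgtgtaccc

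An E-box was present in the windows of 7 of the 10 members: Ddx4, Mael, Sycp1, Sycp3, Taf7l, Tdrd1 and Slc25a31. Sycp3 held 2 E-boxes, and Tdrd1, which has 3 starts in RefSeq, is counted by its first. Of 32851 mouse promoter windows of the same length 6.02% held one, and of the 11685 with at least 11 CpG, the lowest count among members, 9.61% did. The E2F6-type motif was present in Ddx4 and Sycp3, against 3.82% of all windows and 8.57% of those with at least 11 CpG, which hold a median of 20. The members' windows held 11 to 31 CpG (median 16, against 6 over all windows). Dazl, with 20 CpG, has neither motif in this window, nor do Asz1 and Tex101. The E-box was thus present in 3 of the 5 members that were at least 2-fold higher in the positive library and in 4 of the other 5, and the windows with the E2F6-type motif are those of Ddx4 and Sycp3, the 2 members closest to level in CPM but not under TMM, where Tex101 was closest. These matches describe letters and do not show binding. The Tex101 window and 165 bases of the Ddx4 window lie inside the gene as GENCODE draws it, which starts elsewhere than in RefSeq.

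Between the libraries, 5 of the 10 members were at least 2-fold higher in the positive library and 0 were at least 2-fold lower, where a gene is counted as past 2-fold, here and below, after 0.1 CPM is added to both levels. Of all 19341 genes with at least 50 UMIs, 15.5% were at least 2-fold higher and 1.61% at least 2-fold lower. The members were chosen with earlier results of these data known, so setting them beside all genes is a description and not a test. The median log2 ratio, with 0.1 CPM added, was 1.15 over the members and 0.25 over all genes. Together the members had 232 CPM (95% Poisson interval 230 to 235) in the positive and 90.8 CPM (89.3 to 92.3) in the negative library. Dazl made up 41.2% and 17.0% of the members' UMIs in these libraries, and without it the sums were 137 and 75.4 CPM. The differences among members were large: the ratios ran from 0.961 for Sycp3 to 8.49 for Asz1. TMM and median-of-ratios scaling each shifted the log2 ratio by -0.29 before the 0.1 CPM was added, which brought the median of all genes to -0.033 and -0.031 and left the count of 5 members at least 2-fold higher. Over all genes 11.2% were then at least 2-fold higher and 4.25% (TMM) or 4.22% (median of ratios) at least 2-fold lower.

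Among the piRNA pathway members, Asz1, which anchors the pathway at the mitochondrial surface, had 8.58 CPM (8.09 to 9.08, 1186 UMIs) in the positive and 1.01 CPM (0.859 to 1.18, 158 UMIs) in the negative library. The ratio was 8.49, with an exact conditional 95% interval of 7.18 to 10.1, the highest of the 10 in CPM. The rank was lost with larger pseudocounts: with 1 CPM added its log2 ratio was 2.25 in place of 2.97, below Dazl at 2.55 and Sycp1 at 2.41, and with 0.5 CPM added Asz1 and Dazl were at 2.59 and Sycp1 at 2.60. Mael, the Maelstrom protein of transposon silencing, had 32.8 CPM (31.8 to 33.7) against 20.3 CPM (19.6 to 21), a ratio of 1.62 (1.54 to 1.69). Both genes were higher in the positive library beyond counting error, Mael by less than 2-fold. Tdrd1, a Tudor protein that binds Piwi proteins, was sparse, with 112 UMIs or 0.810 CPM (0.667 to 0.974) against 91 UMIs or 0.582 CPM (0.468 to 0.714). Its ratio of 1.39 (1.05 to 1.86) barely left 1, and the 2 Poisson intervals overlapped. Ddx4, the VASA helicase of the germ granule, had 9.66 CPM (9.15 to 10.2) against 8.93 CPM (8.46 to 9.41), also with overlapping intervals. Its log2 ratio of 0.11 became -0.18 under both TMM and median-of-ratios scaling, so no direction is given for it.

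Dazl, the RNA-binding protein needed for germ cell development, had 95.7 CPM (94.0 to 97.3, 13230 UMIs) in the positive and 15.5 CPM (14.9 to 16.1, 2420 UMIs) in the negative library. The ratio was 6.18 (5.92 to 6.46), and 1650 features had more UMIs than Dazl in the positive library against 5820 in the negative one. The synaptonemal complex genes differed from each other. Sycp1, which forms the transverse filaments, had 17.0 CPM (16.3 to 17.7) against 2.40 CPM (2.16 to 2.65), a ratio of 7.10 (6.37 to 7.94). Sycp3, a component of the lateral elements, had 28.4 CPM (27.5 to 29.3) against 29.5 CPM (28.7 to 30.4), with a ratio of 0.961 (0.921 to 1.0). The same gene was at -0.057 on the log2 scale and ranged from -0.35 under TMM to 0.0014 over the alternatives.

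Of the members with roles special to male germ cells, Slc25a31, the ADP/ATP carrier of testis mitochondria, had 24.7 CPM (23.8 to 25.5) against 7.15 CPM (6.74 to 7.59), a ratio of 3.45 (3.22 to 3.69). Taf7l, the X-linked relative of the TFIID subunit Taf7, had 13.3 CPM (12.7 to 13.9) against 4.30 CPM (3.98 to 4.63), a ratio of 3.09 (2.83 to 3.39). Both were clearly apart between the libraries in counting error. Tex101, a germ cell surface protein, was sparse, at 1.58 CPM (1.38 to 1.81) against 1.21 CPM (1.04 to 1.39). Among relatives of these genes, Slc25a4 had 458 and 354 CPM, Slc25a5 767 and 771 CPM, and Taf7 295 and 210 CPM in the positive and negative library. Ddx3x, a relative of Ddx4, had 188 and 114 CPM, Boll, a relative of Dazl, 4.54 and 2.35 CPM, and Sycp2, which works with Sycp3, 3.32 and 1.18 CPM.

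**Figure D1:**
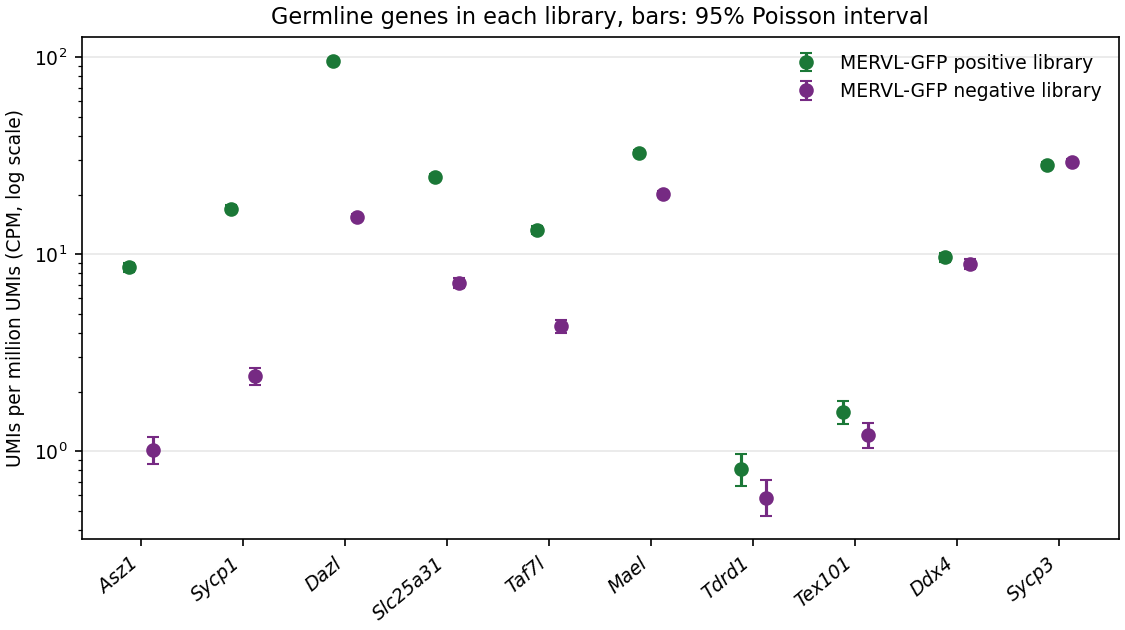
Level of each of the 10 genes in the positive and negative library, in CPM on a log axis, ordered by ratio, with 95% Poisson intervals that cover counting error only. Asz1, Sycp1, Dazl, Slc25a31 and Taf7l stand at least 2-fold higher in the positive library, and Ddx4 and Sycp3 nearly coincide.

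The next comparison asked whether, inside the positive library, these genes followed the 2C-like state. Each cell was thinned to 10000 UMIs and classed by its UMIs of the 9 Zscan4 features, and all UMIs of the cells of a class were then summed. There were 1423 cells with 0 Zscan4 UMIs, 1881 with 1 to 4, 735 with 5 to 19 and 363 with 20 or more, and the median depth ran from 33154 UMIs per cell in the first class to 19514 in the last. GFP had 105, 190, 382 and 470 CPM in these classes. The members together had 212, 235, 256 and 287 CPM, a small slope beside the difference between the libraries. Without Dazl the sum was 147 CPM in cells with at least 5 and 133 CPM in cells with 0 Zscan4 UMIs, a ratio of 1.10 (1.06 to 1.15). Of the 10 members 0 were at least 2-fold higher or lower in cells with at least 5 Zscan4 UMIs than in those with 0, while 9.24% of 15589 genes were at least 2-fold higher and 5.95% at least 2-fold lower. The median log2 ratio was 0.12 over the members and -0.089 over all genes.

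Dazl had 78.9, 99.2, 117 and 121 CPM from the lowest to the highest Zscan4 class, and its interval of 76.4 to 81.4 in the lowest class lay below those of the other classes. Its share of thinned cells with a UMI ran from 41.7% to 56.7%. Between cells with at least 5 and with 0 Zscan4 UMIs its ratio was 1.49 (1.42 to 1.57). Sycp3 had 26.4, 26.5, 30.5 and 51.7 CPM, so that the class with 20 or more Zscan4 UMIs (46.7 to 57.1) stood apart from the others. Chpt1, which overlaps it, had 41.1, 45.1, 58.6 and 71.2 CPM in the same classes, and its part in the Sycp3 counts was not tested. Sycp1 had 15.1, 17.4, 19.8 and 18.5 CPM, a ratio of 1.29 (1.15 to 1.44) between high and 0. Ddx4 had 9.01, 9.60, 10.7 and 11.8 CPM, a ratio of 1.22 (1.05 to 1.42). Asz1 ran the other way, with 9.80, 8.09, 7.89 and 7.71 CPM and a ratio of 0.801 (0.678 to 0.942). For Mael, Taf7l, Slc25a31, Tex101 and Tdrd1 the interval of the ratio included 1, with log2 ratios from -0.17 to 0.20.

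By the reporter itself, the positive library had 1679 cells with 0 thinned GFP UMIs, 1350 with 1 to 2, 1177 with 3 to 9 and 196 with 10 or more. The members together had 231, 232, 234 and 255 CPM in these classes. Without Dazl the sum was 134 CPM in cells with and 142 CPM in cells without GFP, a ratio of 0.944 (0.917 to 0.972). On the log2 scale this was -0.083, beside -0.081 as the median of all genes. None of the 10 was at least 2-fold higher or lower in cells with GFP than in cells without, where 3.94% of 17415 genes were higher and 0.781% lower. Asz1 had 10.6, 7.68, 7.0 and 5.07 CPM as GFP rose, a ratio of 0.682 (0.607 to 0.765) between cells with and without GFP. Dazl had 89.0, 96.5, 104 and 111 CPM, a ratio of 1.13 (1.09 to 1.17), and Sycp1 had a ratio of 1.14 (1.05 to 1.24). Taf7l (0.822, 0.749 to 0.902), Slc25a31 (0.920, 0.859 to 0.986), Mael (0.937, 0.883 to 0.995) and Tex101 (0.738, 0.558 to 0.975) had ratios below 1. The median log2 ratio of all genes was -0.081, close to Slc25a31 at -0.12 and Mael at -0.094. Under median-of-ratios scaling Slc25a31 was at -0.018, and the direction of Mael turned under this scaling and TMM. Tex101, at -0.41, ranged from -0.86 with 3 or more GFP UMIs to -0.088 under the stricter cell filter. For Ddx4, Sycp3 and Tdrd1 the interval included 1.

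When both axes were crossed, Asz1 had 11.6, 9.40 and 12 CPM in cells without GFP and 7.57, 7.17 and 7.08 CPM in cells with GFP, for 0, 1 to 4 and at least 5 Zscan4 UMIs. The lower level thus went with GFP at each Zscan4 level. Dazl had 73.6, 98.0 and 134 CPM without GFP and 85.5, 100 and 115 CPM with GFP, so that its slope with Zscan4 was present on both sides. Only 149 cells had at least 5 Zscan4 UMIs without GFP.

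**Figure D2:**
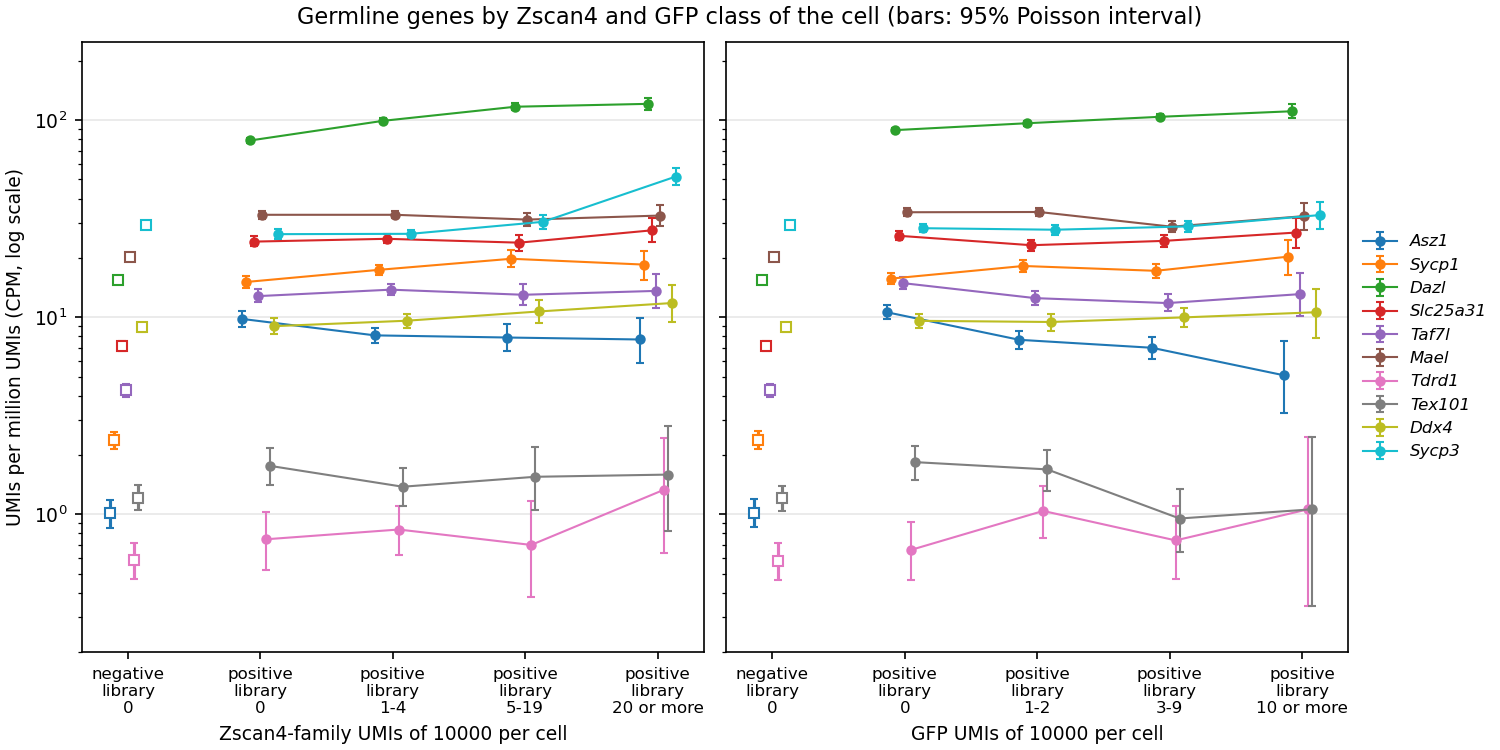
Level of each gene in CPM (log axis, 95% Poisson intervals) by Zscan4 class (left) and GFP class (right) of positive-library cells, with negative-library cells at 0 as open squares. The step from the open squares to the first positive-library class is larger for Asz1, Sycp1, Dazl, Slc25a31 and Taf7l than any slope across the classes, and Sycp3 at 51.7 CPM in the highest Zscan4 class stands off its own line.

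Because cells of the positive library without these transcripts could still be set against the negative library, the comparison was repeated on cells with 0 thinned GFP and 0 thinned Zscan4 UMIs, a choice made after seeing the data. This left 779 cells of the positive and 3793 of the negative library. Again 5 of the 10 members were at least 2-fold higher and 0 at least 2-fold lower, where 9.39% of 16940 genes were higher and 0.933% lower. Asz1 had 11.6 against 1.01 CPM (ratio 11.4, 9.41 to 13.9), Sycp1 14.5 against 2.36 CPM (6.15, 5.32 to 7.12) and Dazl 73.6 against 15.4 CPM (4.79, 4.51 to 5.09). Slc25a31 (3.53, 3.20 to 3.89) and Taf7l (3.38, 2.97 to 3.84) were at ratios beside 3.45 and 3.09 over all cells. Ddx4 (1.02, 0.886 to 1.17) and Tdrd1 (0.901, 0.474 to 1.59) had intervals that included 1. The 779 cells were not free of the reporter at full depth: GFP was at 25.0 CPM in them. They belong to the 1423 positive-library cells with 0 thinned Zscan4 UMIs, which still held 2C-like transcripts at full depth. In those cells Zscan4d was at 9.53 CPM and Eif1ad8 at 132 CPM, beside 0.467 and 0.761 CPM over the negative library. Zfp932, of the same markers, went the other way (18.8 against 23.8 CPM). The library difference in these 5 genes was present in cells low in, but not free of, both measures. Whether it holds outside the 2C-like state was not tested, and library preparation as a source of it cannot be told apart from the group.

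In the negative library only 18 cells had a thinned GFP UMI and only 13 a thinned Zscan4 UMI, too few for classes. In the 18 cells the members together had 124 CPM (99.7 to 152) and in the 13 cells 130 CPM (100 to 166), beside 90.8 CPM over the library. Dazl had 40.6 CPM (24.8 to 62.7, 20 UMIs) in the 13 cells.

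A second cell state cut across both libraries. Cells with at least 10 thinned UMIs of the primitive endoderm list, which holds Gata6, Gata4, Sox17, Pdgfra and other markers of the extraembryonic lineage, were set against cells with 0 to 2. Such endoderm-high cells numbered 492 in the positive library, with 3293 low, and 208 in the negative library, with 3494 low, and median depth was similar, at 29364 and 30653 UMIs in the positive and 40425 and 39129 UMIs in the negative library. The 617 and 122 cells with 3 to 9 UMIs were left out, and the class is a range of a summed level and not a cell type. In the positive library 6 of 10 members were at least 2-fold lower in endoderm-high cells and 0 at least 2-fold higher, where 14.8% of 16899 genes were lower and 6.33% higher. The same split of the negative library gave 2 of 10 lower and 0 higher, while 11.1% of 15981 genes were lower and 7.49% higher. The members' median log2 ratio was -1.18 in the positive and -0.36 in the negative library, against -0.16 and -0.029 over all genes.

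Within the positive library Dazl differed most between these classes, with 22.7 CPM (20.4 to 25.2) in endoderm-high and 104 CPM (102 to 106) in endoderm-low cells, a ratio of 0.219 (0.196 to 0.243). Its negative-library levels were 12 CPM (9.81 to 14.5) and 15.4 CPM (14.8 to 16.1), so that its level in endoderm-high cells was nearer between the libraries than in endoderm-low cells. Slc25a31 (0.303), Asz1 (0.350), Taf7l (0.40), Sycp3 (0.408) and Sycp1 (0.474) were the other members at least 2-fold lower in the positive library. In the negative library Slc25a31 was lower by less than 2-fold (0.565, 0.394 to 0.788). The intervals there for Taf7l (0.770, 0.512 to 1.12) and Sycp1 (1.41, 0.927 to 2.06) included 1. Sycp3 was lower to a like extent in the negative library, at 13.5 against 30.7 CPM (0.440, 0.363 to 0.528). Asz1 had a ratio of 0.335 there from only 3 UMIs in endoderm-high cells, with an interval of 0.0682 to 0.997. Ddx4 was lower in both, with ratios of 0.606 (0.485 to 0.750) and 0.523 (0.375 to 0.711). Mael was the exception with intervals above 1 in both, at 41.9 against 31.3 CPM (1.34, 1.23 to 1.46) and 33.4 against 19.4 CPM (1.72, 1.52 to 1.94). The intervals for Tex101 and Tdrd1 included 1 in both libraries. Whether the effects differ between the libraries was not tested.

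Endoderm state and Zscan4 level were then crossed in the positive library. In endoderm-low cells Dazl had 86.0, 107 and 128 CPM at 0, 1 to 4 and at least 5 Zscan4 UMIs, and in endoderm-high cells 17.7, 23.1 and 33.6 CPM. Both directions were thus present within the other measure. Without endoderm-high cells the log2 ratio of the members together between the libraries was 1.44, beside 1.35 with them.

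**Figure D3:**
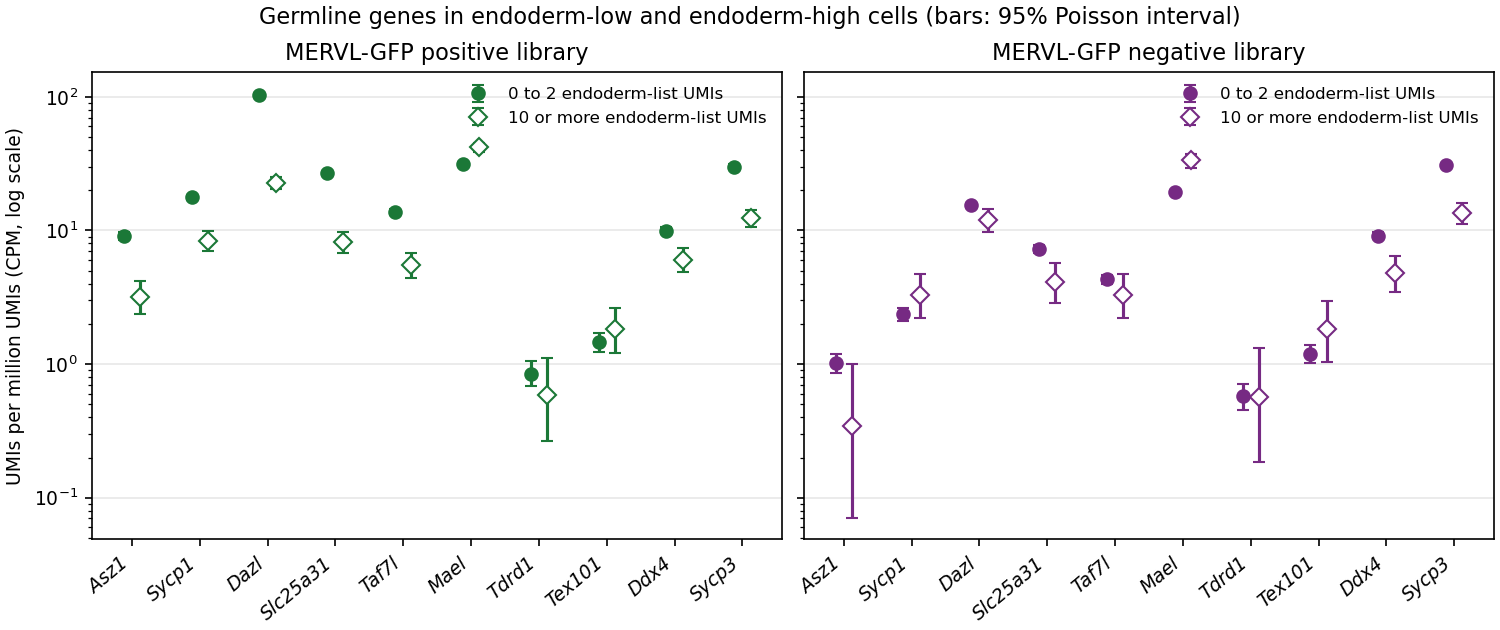
Level of each gene in CPM (log axis, 95% Poisson intervals) in endoderm-low (filled circles) and endoderm-high cells (open diamonds) of each library. In the positive library Dazl is at 104 and 22.7 CPM, and Mael is the gene whose open diamond lies above its circle with separate intervals in both libraries.

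At 10000 UMIs per cell, which left 4402 positive-library and 3824 negative-library cells, any of the 10 had a UMI in 78.9% and 55.1% of them (94.4% and 90.5% without thinning). Each member by itself was found in a minority of these thinned cells, while at full depth Dazl was found in 69.7% and Mael in 52.5% of positive-library and Sycp3 in 58.3% of negative-library cells. Dazl was found in 47.2% (exact binomial interval 45.7 to 48.7) and 13.3% (12.2 to 14.4), Slc25a31 in 19% and 6.04%, Sycp1 in 13.4% and 2.59%, Taf7l in 11.1% and 4.34% and Asz1 in 6.84% and 0.889%. Mael was found in 25.4% and 17.8%, Sycp3 in 23.3% and 23.0%, and Ddx4 in 8.59% and 8.08%. Tex101 was found in 1.41% and 1.31% and Tdrd1 in 0.954% and 0.445%.

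As a measure of free or misassigned RNA, genes that should be silent in these cells were read the same way. Alb, Ins2, Hbb-bs and Umod were found in 0% to 0.0262% of cells, where a count of 0, read as up to 3 cells, allows up to 0.0682% and 0.0785%, and Gfap in 0.204% and 0.418%. Cd3e and Myh6, also chosen as silent, were found in 2.35% to 4.18% of cells and are not a usable floor. GFP in the negative library, at 0.471%, is the nearest measure of transcripts crossing between libraries. The negative-library share of Asz1 (0.617% to 1.24%) overlapped the interval of GFP (0.279% to 0.743%), as did that of Tdrd1. In UMIs, Asz1 had 158 and Tdrd1 91 in that library beside 71 of GFP, although GFP had 28299 in the positive library against 1186 and 112 for them. A like share is thus not a like rate of crossing, and how much of these 2 shares is background was not tested. The shares of the other 8 members lay above that of GFP, Tex101 with a lower bound of 0.972%.

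The variance of thinned Dazl UMIs over cells was 2.52 and 1.33 times their mean in the positive and negative library, where 1 is the value of pure counting, and the highest cell had 45 Dazl UMIs. For Ddx4 this value was 1.07 and 1.11.

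Co-detection was read as the number of thinned cells with UMIs of both genes over the number given by the product of their shares. Pairs with at least 5 cells under the product were described, 40 of 45 in the positive and 25 of 45 in the negative library. In the positive library 39 of the 40 pairs were found together more often than the product, 21 with a Poisson interval above 1 and 0 with one below. Over all described pairs 5542 such cells were counted against 4493, a ratio of 1.23. For the negative library 18 of 25 pairs were above the product, 4 with an interval above 1 and 0 below, with 1012 cells against 895, a ratio of 1.13. Pairs share genes and cells, so these counts are not independent. Pairs of other genes were not counted, so whether such an excess is particular to the members was not tested.

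Among the 5 members at least 2-fold higher in the positive library, pairs with Dazl had ratios of 1.24 to 1.34 and the pairs of Asz1, Sycp1, Taf7l and Slc25a31 ratios of 1.53 to 1.81. The largest ratio a pair can reach is 1 over its larger share, and Dazl was found in 47.2% of cells. Ratios of pairs with Dazl are therefore not comparable in size with the others. Asz1 and Sycp1 were found together in 73 cells against 40.3 by the product (ratio 1.81, 1.42 to 2.28), Asz1 and Taf7l in 59 against 33.3 (1.77, 1.35 to 2.29), and Sycp1 and Taf7l in 110 against 65.3 (1.69, 1.39 to 2.03). Taf7l with Slc25a31 had a ratio of 1.68 (1.42 to 1.96) and Asz1 with Slc25a31 one of 1.64 (1.33 to 2.01). Pairs with Mael were nearer to the product, from 0.751 with Tdrd1 to 1.19 with Asz1, and of its pairs only that with Slc25a31 (1.18, 1.04 to 1.34) had an interval above 1. Taf7l and Tex101 had the highest ratio, 2.19 (1.22 to 3.61), from 15 cells, and Sycp3 was at 1.73 (1.01 to 2.78) with Tdrd1 and 1.66 (1.06 to 2.47) with Tex101. In the negative library the described pairs with an interval above 1 were Mael with Sycp1 (1.70, 1.15 to 2.43), Dazl with Taf7l (1.5, 1.03 to 2.11), Mael with Slc25a31 (1.44, 1.09 to 1.85) and Dazl with Mael (1.35, 1.12 to 1.62). Below the minimum of 5 cells, Asz1 with Slc25a31 was found in 7 cells against 2.05 (3.41, 1.37 to 7.02).

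Levels were read in the same way. In the 301 positive-library cells with a thinned Asz1 UMI, Dazl was at 170 CPM (162 to 179) against 90.3 CPM in the other cells, Slc25a31 at 51.6 against 22.7 CPM and Sycp1 at 33.7 against 15.8 CPM. Ddx4 was nearly level between them, with an interval of 8.12 to 12.3 CPM around the 9.65 CPM of the other cells. In the 507 negative-library cells with Dazl, Slc25a31 had 9.75 CPM against 6.76 CPM and Sycp3 32.1 against 29.1 CPM.

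**Figure D4:**
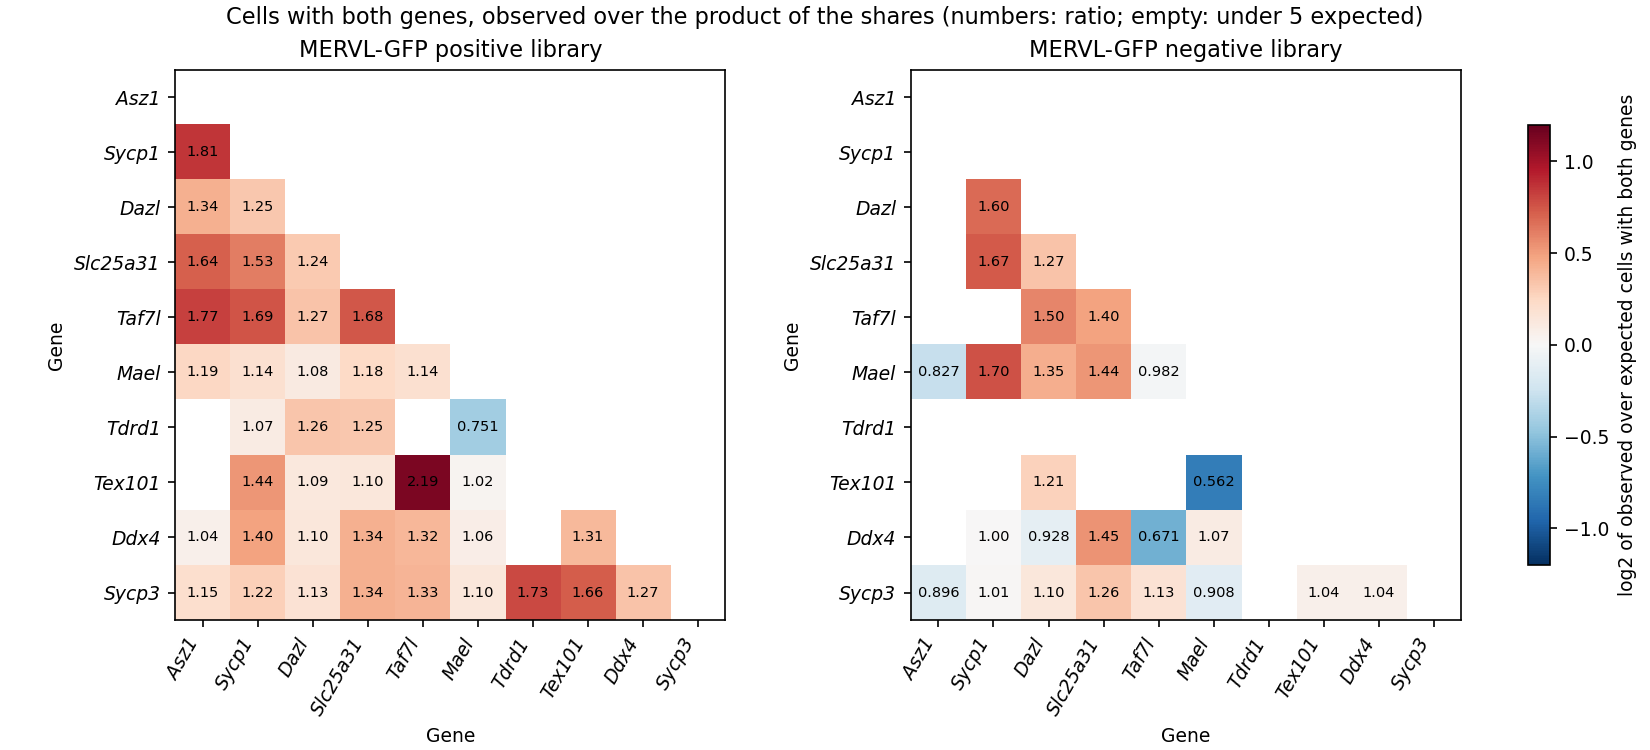
Observed over expected number of cells with both genes for each described pair, in the positive (left) and negative (right) library, at 10000 UMIs per cell, with colour on the log2 scale and the ratio printed. In the positive library 39 of 40 coloured squares are above 1, with 1.53 to 1.81 among Asz1, Sycp1, Slc25a31 and Taf7l and 1.24 to 1.34 for the pairs of these 4 with Dazl. The highest ratio possible is lower for pairs with Dazl, found in 47.2% of cells.

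Counted per cell, 355 positive-library cells (8.06%) had at least 4 of the 10 members where the product of the shares gave 195, and 111 had at least 5 where it gave 29.7. At the other end, 931 cells had 0 members where it gave 690. Only 20 negative-library cells (0.523%) had at least 4 against 11.7. The share of endoderm-high cells ran from 22.0% among positive-library cells with 0 members to 1.69% among those with at least 4. The median number of genes detected at this depth ran from 3123 to 3297 over the same positive-library cells and was 2989 and 2993 in the negative library, and its part in the counts was not tested. The share with GFP stayed between 60.7% and 62.9%, and the share with at least 5 Zscan4 UMIs ran from 20.2% to 27.9%. Among the 3910 positive-library cells with fewer than 10 endoderm-list UMIs the ratio over all described pairs was 1.21, and 349 cells had at least 4 members against 208. The excess was thus present without the endoderm-high cells, and it was not set against that of other genes.

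**Figure D5:**
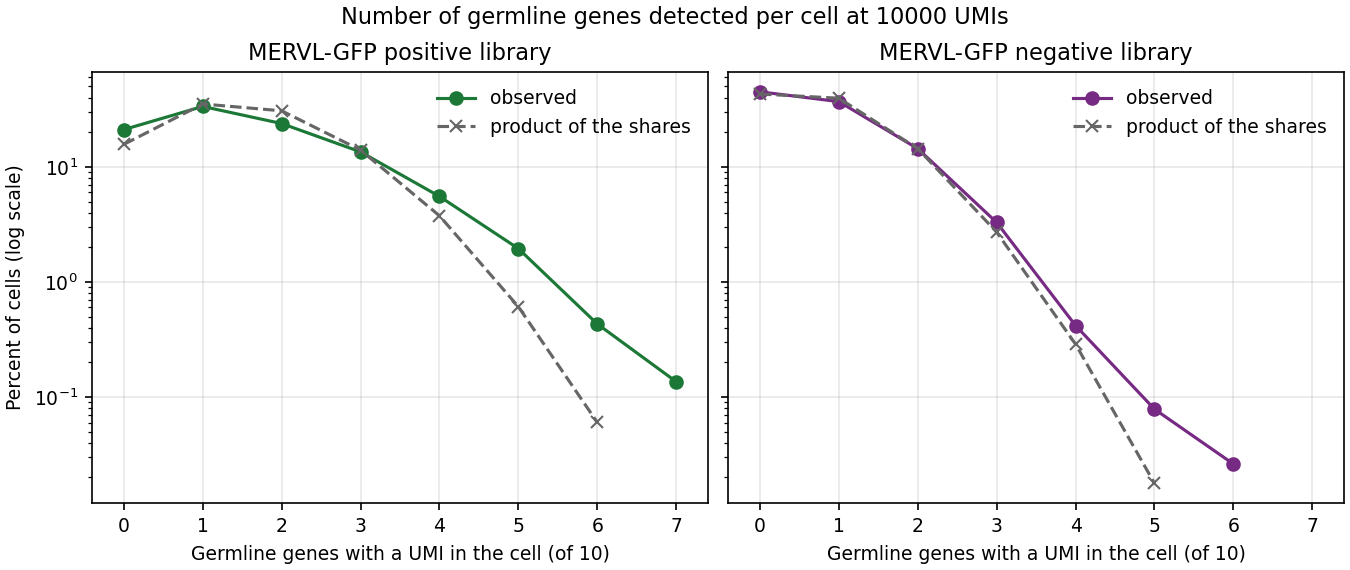
Percent of thinned cells (log axis) by number of the 10 genes with a UMI, observed (circles) and by the product of the shares (crosses, drawn down to 0.01%), in each library. From 4 genes on, the positive-library curve lies above the product, with 355 cells against 195 at 4 or more.

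Related genes were read from lists written by hand, whose counts stand beside 15.5% of all genes at least 2-fold higher and 1.61% lower in CPM (11.2% and 4.25% under TMM). The share at least 2-fold higher was 29.4% of the further germline genes, 23.1% of the piRNA list, 5.88% of the meiosis list and 25% of the regulators. Of 17 further germline genes under methylation control, 5 were at least 2-fold higher and 1 at least 2-fold lower in the positive library, with a median log2 ratio of 0.71 (4 and 1, and 0.42, under TMM and median-of-ratios scaling). Tuba3b, a testis tubulin, had 12.9 against 3.41 CPM, Tex19.2 3.33 against 0.927 CPM and Dpep3 3.20 against 1.11 CPM. Below 2-fold, Tex19.1, known from germ cells and placenta, had 87.1 against 44.8 CPM, Rhox13 109 against 66.4 CPM, and Dnmt3l, the cofactor of de novo methylation, 98.1 against 86.9 CPM. Nanos3 was the lower gene, at 1.17 against 2.60 CPM.

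Of 13 other piRNA pathway genes with at least 50 UMIs, 3 were at least 2-fold higher and 1 lower, with a median of 0.62. Tdrkh had 21.8 against 10.4 CPM, Gtsf1 16.5 against 7.83 CPM and Tdrd7 0.781 against 0.320 CPM, while Piwil4 had 1.37 against 3.44 CPM and the helicase Mov10l1 16 against 13.9 CPM. Under TMM and median-of-ratios scaling the 3 higher genes fell below 2-fold, leaving 0 higher and 1 lower. Henmt1, at 1.11 against 0.505 CPM, was past 2-fold only without the added 0.1 CPM. Of 17 other meiosis genes 1 was counted as at least 2-fold higher, Sycp2, and 0 as lower (Meiob, at 0.759 against 0.377 CPM, missed the count through the added 0.1 CPM), with a median of 0.23 that turned to -0.057 under TMM, where Syce2 was past 2-fold lower. Among them the central element genes differed in direction, with Syce1 at 52.8 against 28.9 CPM and Syce2 at 55.2 against 107 CPM, and Stra8, the retinoic acid target of meiotic entry, had 89.9 and 89.0 CPM. Of 12 regulators of the germline programme 3 were at least 2-fold higher and 2 lower (2 and 2 under either scaling). Dppa3, which protects against and lowers maintenance methylation, had 51.3 against 8.23 CPM, Prdm14 9.25 against 4.25 CPM, Nobox 0.586 against 0.0448 CPM and Kit 47.9 against 29.1 CPM. In the other direction, Tfap2c had 18.4 against 39.5 CPM, Prdm1 4.25 against 6.53 CPM, Dnd1 10.5 against 13.2 CPM and Nanos3 the values given above. The median of the 12 was -0.051.

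Of 13 genes of the DNA methylation machinery 0 were past 2-fold in CPM, with a median of -0.12, and under TMM and median-of-ratios scaling 1 was, Tet1, which was lower in the positive library. The maintenance enzyme Dnmt1 had 111 and 133 CPM, Dnmt3b 66.5 and 48.6 CPM, the remodeller Hells 338 and 368 CPM, the oxidase Tet1 197 and 353 CPM and Uhrf2 67.1 and 34.8 CPM in the positive and negative library. Of 20 PRC1.6 and other repressor genes 0 were past 2-fold in CPM, with a median of 0.12 that turned to -0.17 under either scaling, where 1, Tfdp1, was lower. Tfdp1, the partner of E2F factors, had 42.2 and 76.7 CPM, Cbx3 155 and 234 CPM, Kdm1a 289 and 321 CPM and Trim28 766 and 390 CPM. Transcript levels say nothing of methylation at the promoters shown above.

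Across 7 cell classes (both libraries split by GFP and Zscan4, with at least 50 cells each), the genes whose log2 level was most like that of Dazl were Pdha2, Kdm5b and Htatsf1 (Pearson r 0.999, 0.998 and 0.998 among 12387 genes). For Sycp1 they were Kdm5b, Wls and Dynlrb1, for Asz1 Abcd4, Bcor and Ppp1r9b, and for Sycp3 Nsfl1c, Yae1d1 and Rnf146, the last 3 at no more than 0.960. For Taf7l they were Amph, Copa and Pals1, for Slc25a31 Cd55, Dnajc3 and Piezo1, and for Mael Lpcat3, Erbb3 and Mtmr14, at 0.992 to 0.998. For Ddx4, which varied over only 0.40 on the log2 scale, they were Dennd4a, Mepce and Midn, at 0.988 to 0.991. Among the members, Dazl and Sycp1 were alike at 0.994, and Asz1 and Sycp3 at 0.033. These values describe 7 points, 6 of which come from 1 library.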

How the data were processed

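Transcripts were counted in single mESC of 1 MERVL-GFP positive and 1 negative library. The authors deposited, per library, a sparse matrix of counts that are whole numbers, read here as UMIs, although the labels do not state molecule counting. FastQC 0.11.2, Trim Galore 0.6.4, STAR 2.7.6a and the mm10 build are named in the submitters' processing notes, and how cells were called or strand was used is not given in the sources used here. The labels' extraction text names kits for bulk RNA. Of the features, 52133 of 55415 matched GENCODE M21 by ID.

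Cells with at least 1000 UMIs, 500 genes and at most 20% mitochondrial UMIs were kept, which removed 7 positive-library cells and no others. No doublet caller was run, so doublets remain, and an alternative left out cells above 2 times the median UMIs. UMIs were summed and scaled to CPM, and log2 ratios used 0.1 CPM as pseudocount. Classes and shares used cells cut at random, without replacement, to 10000 UMIs each, and left out 194 and 8 shallower cells. Poisson, binomial (Clopper-Pearson) and conditional ratio intervals are at 95% and cover counting error only. A difference was called by size, at least 2-fold after the pseudocount was added, among genes with at least 50 UMIs in the cells compared.

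The members and lists were chosen with earlier results of these data known. Named are the members, of each other list the 3 genes of highest CPM and the 3 of largest log2 ratio, and the 3 genes most like each member with at least 500 UMIs. Of the marker lists only some such genes are printed. Prdm1, Dnd1, Nanos3, Tfap2c, Henmt1, Meiob, Gata6, Gata4, Sox17, Pdgfra, Col3a1, Postn, Lum, Dcn, Zfp932, Chpt1, the genes read as silent and the relatives of members were named outside this rule, some after their values were seen. Protein sequences were not used here, and 1 gene of the silent list is not reported here. The steps were tested on simulated data. The software was R 4.3.3 with edgeR 4.0.16 (scaling only) and Python 3.11.15 with scipy 1.17.1, numpy 2.4.6, matplotlib 3.10.9 and pandas 2.3.3.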

Additional observations from a re-analysis of the deposited data

How the results depend on the processing

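No paired analysis was possible because only 1 library stood for a group, and for the same reason no replicate could be left out. The count of 5 members at least 2-fold higher was the same under every other scaling, cell filter and pseudocount tried and became 6 at 1.5-fold and 3 at 4-fold. The log2 ratio of the members together (1.35) was 1.06 under both TMM and median-of-ratios scaling, 1.31 outside ribosomal protein and mitochondrial genes, and, in alternatives chosen after seeing the data, 1.22 in cells with 0 thinned GFP and Zscan4 UMIs, 1.28 in those that were also endoderm-low and 1.44 without endoderm-high cells. Their CPM became 210 and 101 (positive and negative library) under either scaling and 313 and 126 outside those genes. In the positive library it was 237 as the mean of cells, 212 and 221 in the cells at 0, and 248 without endoderm-high cells. Ddx4 turned to -0.18 under TMM and median-of-ratios scaling, and Tdrd1 to -0.13 in the cells at 0 and -0.12 in those also endoderm-low. For Zscan4-high against 0 cells the members together were at 0.37 under median-of-ratios scaling, 0.44 with 20 or more Zscan4 UMIs and 0.20 with 1 or more, beside 0.32. For cells with against without GFP they were at 0.12 under both TMM and median-of-ratios scaling and 0.10 under the stricter cell filter, beside 0.022. The median of members there turned from -0.042 to 0.054, 0.059 and 0.012 under these 3, and Mael turned to 0.0021 (TMM) and 0.0071 (median-of-ratios). The cause of these shifts was not tested. Cells with any member were 58.9% and 33.1% at 5000 UMIs, and 94.4% and 90.5% without thinning. Co-detection ratios were 1.30 and 1.21 at 5000 UMIs, and the positive-library one 1.17 without thinning, where 38 negative-library pairs were above the product. Depth limits Tdrd1 and Tex101, with 91 to 219 UMIs per library, and Asz1 in the negative library, with 158.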
